A study of Mus musculus with 14 samples.

Results

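The regions described here are 1824 stretches of acetylated chromatin in mouse Th1 cells that lay away from the ends of protein-coding genes and carried ETS1 peaks in both WT libraries. They were selected on peak calls. The H3K27ac lists of 4 libraries were merged where peaks overlapped by at least 1 bp, which gave 36466 regions, and 16043 of these held a peak of every H3K27ac library. The midpoint was more than 2 kb from both ends of every RefSeq protein-coding gene (GRCm38) in 7950, and 1824 of those, or 22.9%, overlapped an ETS1 peak in each of the 2 WT libraries. Since H3K27ac in both genotypes and ETS1 in WT made the choice, those values are given below as descriptions without a test. CTCF, ETS1 in KO, annotated transcript starts and sequence were not used in it.

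CUT&RUN releases the DNA around an antibody's target with a tethered nuclease. Naive CD4+ T cells were taken from spleen, stimulated on plates coated with anti-CD3 in the presence of soluble anti-CD28, and polarised to Th1 for 6 days. The medium held IL-12 at 10 ng/mL and IL-2 at 1 ng/mL. All libraries, controls included, thus came from stimulated and polarised cells. WT was strain C57BL/6J, and KO was strain C57BL/6J-Ets1-SE-KO, in which the label names a change at the Ets1 locus whose coordinates the labels do not give. Animal age, sex and pooling are not given in the labels. Each antibody (H3K27ac, CTCF, ETS1) had 2 libraries per genotype, and IgG had 1. By their titles the WT libraries of an antibody repeat 1 culture technically, whereas the KO libraries come from 2 biological replicates. A WT spread is thus technical, and a genotype comparison rests on 1 WT culture.

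H3K27ac, acetylation of lysine 27 of histone H3, marks active promoters and enhancers. ETS1 is a transcription factor of lymphocytes that reads DNA around a GGAA core through its ETS domain, often beside RUNX factors, and it is known as a factor of T cell development and of interferon gamma production by Th1 cells. CTCF is a zinc-finger protein that with cohesin anchors chromatin loops and marks domain borders, and it also occupies many promoters.

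The lists hold peaks and no reads. Depth is therefore unknown, and a region without a peak is a region without a call. The ETS1 lists were of unequal length and stood apart within each genotype, with 14013 and 23419 peaks for WT and 40705 and 9344 for KO. The CTCF lists held 33144 and 31368 peaks for WT, fewer than the 40502 and 39345 for KO. The H3K27ac lists held 24711 and 24581 peaks for WT and 26465 and 28647 for KO. They covered 21.8012 and 21.2865 Mb in WT, less than the 28.0096 and 28.5359 Mb in KO. The H3K27ac lengths of single regions below were not adjusted for this. The IgG lists, of 2 peaks for WT and 285 for KO, had a peak in 0 of the 1824 regions in WT and in 36 (1.97%) in KO. Of the T cell markers, Cd3e, Cd4, Cd2, Lck and Cd28 carried H3K27ac peaks in all 4 libraries. Of the Th1 markers Tbx21 and Il12rb2 did so too, while Ifng had a peak in 1 library and Cxcr3 in 0. Markers of other cells were not all without peaks, since Cd79a, Ebf1, Spi1, Csf1r, Gata3 and Cd8b1 had peaks in all 4 libraries, and Foxp3 in 1, while Pax5, Lyz2, Cd8a, Ncr1, Gata1, Hbb-bs, Il4 and Il17a had 0. The part of other cells in the regions was not tested.

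Distal, in this rule, means distal to the ends of a gene's whole span, and many of the regions were not distal to an annotated start. Of the 1785 regions on chromosomes with entries in the RefSeq table of transcript starts, 645 (36.1%) contained a start, against 43.7% of 15661 regions called in all 4 H3K27ac libraries. A protein-coding start was inside 528 of them and a non-coding start alone inside 117. In 526 regions the start belonged to the nearest or surrounding gene, and in 464 a protein-coding start lay inside a region that held no end of a protein-coding gene. The other 1140 regions contained no start of the table, and 1093 (61.2%) lay over 1 kb from any in it. The table lacks the starts of some genes, such as Ets1. The first region inside Ets1, described below, lay 64995 bp from the nearest start in the table. Here and below, regions without a start are thus those without one in the table, and some may hold a start that it lacks. Among distal regions without an ETS1 peak in WT, 127 of 3963 (3.20%) contained a start, and among ETS1-bound regions at gene ends 4642 of 5888 (78.8%) did. Those totals, unlike the 1785, still hold 101 and 152 regions without entries in the table, where no start could be counted. The label distal therefore holds by the rule and not by annotated starts. The 645 and the 1140 regions are given apart for ETS1 in KO, CTCF in each library and the counts by H3K27ac length. Most other values are pooled, though some differed. All 4 CTCF libraries, for example, had a peak in 76.9% of the 645 and 59.8% of the 1140.

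Sequence was available for windows of 300 bases at RefSeq starts (build GRCm38.p6, from 250 bases before to 50 bases after the start). Of 496 such windows inside the regions, 378 lay under ETS1 peaks of both WT libraries. The windows below show what the ETS1 peaks at these starts cover. They are written 5′ to 3′ on the strand of the transcript, in lower case, with the motifs AGGAAG and CCGGAAGT in capitals on either strand (AGGAAG reads CTTCCT on the other). Gm34655 (chr9:121277628-121277927, plus strand), Mettl3 (chr14:52305075-52305374, minus strand) and Ddx50 (chr10:62651169-62651468, minus strand) are the windows with CCGGAAGT, a consensus of high affinity for ETS1, that rank best by ETS1 in WT. Nfatc2 (chr2:168590316-168590615, minus strand) and Cd247 (chr1:165788431-165788730, plus strand) are T cell genes of the gene lists. Gm27011 (chr8:121950596-121950895, minus strand), inside the gene Banp, has the best ETS1 rank of all windows that hold neither motif.
Gm34655: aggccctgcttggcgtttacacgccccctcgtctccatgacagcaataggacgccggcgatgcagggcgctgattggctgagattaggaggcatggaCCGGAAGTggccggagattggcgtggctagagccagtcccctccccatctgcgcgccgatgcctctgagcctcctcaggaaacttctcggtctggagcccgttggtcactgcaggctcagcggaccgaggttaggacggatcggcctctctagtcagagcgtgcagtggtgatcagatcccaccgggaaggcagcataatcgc
Mettl3: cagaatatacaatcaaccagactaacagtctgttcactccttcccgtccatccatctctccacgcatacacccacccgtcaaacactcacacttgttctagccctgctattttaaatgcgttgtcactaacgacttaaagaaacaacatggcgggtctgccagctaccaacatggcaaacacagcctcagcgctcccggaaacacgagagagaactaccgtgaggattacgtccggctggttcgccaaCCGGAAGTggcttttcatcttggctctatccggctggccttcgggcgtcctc
Ddx50: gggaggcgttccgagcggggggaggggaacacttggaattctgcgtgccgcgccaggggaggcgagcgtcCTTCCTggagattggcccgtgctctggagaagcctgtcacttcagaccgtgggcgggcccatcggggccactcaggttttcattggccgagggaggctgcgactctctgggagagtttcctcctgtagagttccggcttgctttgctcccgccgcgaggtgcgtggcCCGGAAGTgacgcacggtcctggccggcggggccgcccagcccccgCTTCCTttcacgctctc
Nfatc2: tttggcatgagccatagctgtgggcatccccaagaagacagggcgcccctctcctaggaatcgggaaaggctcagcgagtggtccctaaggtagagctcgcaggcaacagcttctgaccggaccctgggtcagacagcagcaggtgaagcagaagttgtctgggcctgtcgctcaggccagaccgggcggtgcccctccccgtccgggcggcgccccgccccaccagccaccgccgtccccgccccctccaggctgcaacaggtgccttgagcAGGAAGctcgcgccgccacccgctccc
Cd247: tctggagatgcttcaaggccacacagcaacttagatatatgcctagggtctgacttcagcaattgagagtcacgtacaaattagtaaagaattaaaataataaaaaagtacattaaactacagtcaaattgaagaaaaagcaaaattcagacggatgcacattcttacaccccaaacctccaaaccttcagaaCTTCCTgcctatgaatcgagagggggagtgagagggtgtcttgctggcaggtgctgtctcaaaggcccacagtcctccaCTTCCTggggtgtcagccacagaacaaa
Gm27011: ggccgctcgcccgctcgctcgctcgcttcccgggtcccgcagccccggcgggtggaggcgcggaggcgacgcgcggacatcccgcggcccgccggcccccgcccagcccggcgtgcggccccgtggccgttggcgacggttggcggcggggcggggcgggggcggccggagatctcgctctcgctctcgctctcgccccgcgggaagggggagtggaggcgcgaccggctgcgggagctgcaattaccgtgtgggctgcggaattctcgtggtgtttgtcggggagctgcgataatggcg

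Of the 378 windows, 27 (7.14%) held CCGGAAGT and 141 (37.3%) held AGGAAG. Over all 32851 windows the shares were 3.89% and 35.4%. Of 48 windows inside the regions but under no WT ETS1 peak, 6.25% held CCGGAAGT and 27 (56.3%) held AGGAAG, at 55.1% G and C. AGGAAG was thus no more common under the ETS1 peaks than in other windows of the same regions. The bare core GGAA, counted on both strands and contained in both longer motifs, was in 94.4% of the 378 windows and 96.0% of all. The RUNX motif TGTGGT was in 9.52% against 16.8% and the AP-1 motif TGANTCA in 3.97% against 7.81%. G and C made up 65.4% of the bases in the 378 windows and 53.8% of all windows, and motif shares were not adjusted for this. In the ETS1-bound windows at gene ends, 345 of 2994 (11.5%) held CCGGAAGT and 30.9% held AGGAAG at 65.2% G and C. In distal regions without WT ETS1, 0 of 78 windows held CCGGAAGT and 51.3% held AGGAAG at 54.4% G and C. The region around the Gm34655 window kept an ETS1 peak in both KO libraries and CTCF in all 4, as did those of Mettl3, Ddx50, Nfatc2, Cd247 and Gm27011. The Cd247 window itself lay under an ETS1 peak in 1 KO library and under CTCF peaks in 0 libraries. No sequence was used here for regions without a start, so these shares describe start-bearing regions only.

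The regions were short with a long upper tail. Their width ran from 192 to 81951 bp with a median of 1539 bp (10th to 90th percentile 565 to 5393 bp), and together they spanned 4.64 Mb. Distal regions without WT ETS1 had a median of 1270 bp. The midpoint fell inside a protein-coding gene in 1300 regions (71.3%) and between genes in 524 (28.7%). The distance from the midpoint to the nearest gene end had a median of 10574 bp, with 875 regions (48.0%) within 10 kb and 217 (11.9%) beyond 50 kb. The span itself reached over a gene end in 88 regions (4.82%), whose median width was 7914.5 bp. At the 2 kb threshold, the closest regions kept were at Tecr, Zfp827 and Srf, with midpoints 2000.5, 2001.5 and 2002.5 bp from a gene end, and the closest left out were at Haao, Mxi1 and Bach2, at 1996, 1995 and 1993.5 bp.

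ETS1 peaks filled a median of 30.7% of the region in WT replicate 1 and 47.5% in WT replicate 2. The stretch under ETS1 peaks of both, which cannot be longer than either, had a median length of 356.5 bp and filled 24.98% of the region at the median. It filled 50% or more in 420 regions (23.03%). In 1637 regions there was 1 such stretch, in 89 there were 2, in 29 there were 3 or more, and in 69 the ETS1 peaks of the 2 libraries did not meet. Most regions held a single ETS1 peak, 91.8% by WT replicate 1 and 84.6% by WT replicate 2. The middle of an ETS1 peak lay a median of 282 and 287 bp from the middle of the region in WT, and 328 and 290 bp in KO. CTCF peaks lay as close, at 287 to 293 bp in the 4 libraries. Of the regions with a CTCF peak, that peak touched the ETS1 stretch shared by the WT libraries in 92.9% to 94.1%. ETS1 and CTCF calls thus mostly overlapped where both were called, which lists of separate libraries show as overlap and not as joint occupancy of one molecule. Where called, CTCF peaks filled a median of 40.4% to 51.8% of the region, and any overlap counted as touching. How much overlap such widths alone would give was not tested.

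**Figure D1:**
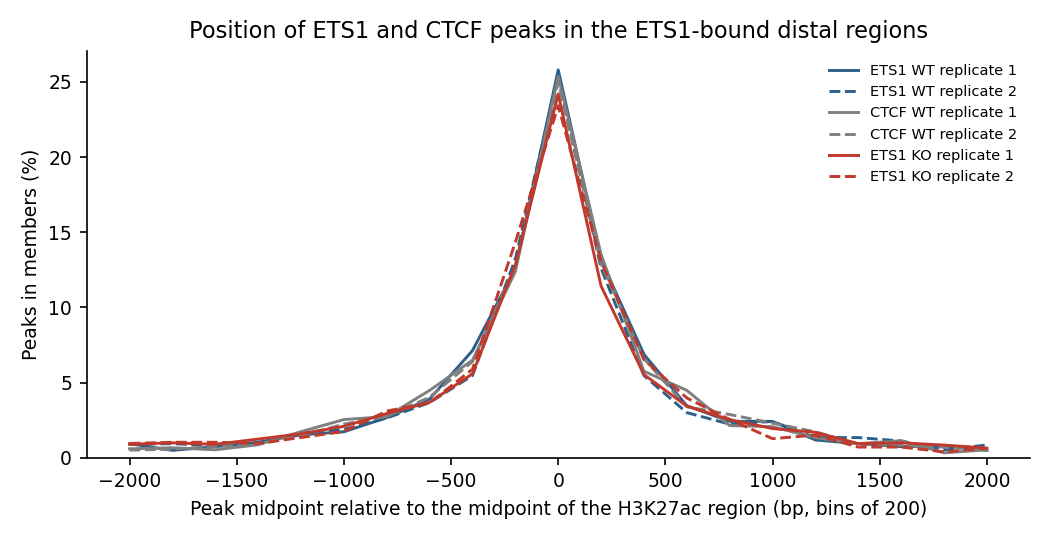
Position of ETS1 and CTCF peaks within the 1824 regions: the x axis gives the distance in bp from the middle of a peak to the middle of its H3K27ac region in bins of 200 bp, and the y axis the percentage of peaks, with 1 line for each of 6 libraries. The lines of both antibodies have their highest point at the middle bin and lie close together.

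In the authors' own ranking the ETS1 peaks of these regions were not the strongest of their lists. The best ETS1 peak of a region stood at a median of 42.9% of the list in WT replicate 1 and 29.8% in WT replicate 2, where 0% is the top, and in 9.48% and 14.7% of regions it was among the top 10%. By the deposited fold enrichment it had a median of 3.66 and 3.79, beside 3.58 and 3.48 over the whole lists.

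The regions that ranked best by ETS1 in the weaker WT library lay near Pum2, Banp, Pcmtd1, Fis1, Aars2, Mef2d, Rnf14 and Smg9. In all 8 an ETS1 peak was called in both KO libraries and CTCF in all 4, beside 57.4% and 66.1% of the 1824 regions. Over all 16043 regions these shares were 42.9% and 49.4%. The region 32998 bp from Pum2, which encodes an RNA-binding repressor of translation, is chr12:8640848-8641340. Its ETS1 peak had a deposited fold enrichment of 9.62 and 9.43 in WT and 11.5 and 9.03 in KO. The region inside Banp (chr8:121949841-121951688) holds the Gm27011 start printed above, and its values were 14.5 and 12.2 in WT and 12.03 and 11.7 in KO. The authors' fold values belong to each list and are not a measure of change between genotypes. The Fis1 and Smg9 regions contained protein-coding starts, and those near Pcmtd1, Banp and Mef2d held starts of non-coding genes.

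Most of the regions were called for ETS1 in KO as well. KO replicate 1 had an ETS1 peak in 1587 regions (87.0%) and KO replicate 2 in 1115 (61.1%). Over all 16043 regions these shares were 69.7% and 45.0%. Both KO libraries had a peak in 1047 regions, or 57.4%, against 42.9% of all 16043 regions called in all 4 H3K27ac libraries. Replicate 1 alone had one in 540 (29.6%), replicate 2 alone in 68 (3.73%), and neither in 169 (9.27%, against 28.1% of all). Distal regions with ETS1 in 1 WT library stood between, with an ETS1 peak in 52.6% and 18.4% by the same KO libraries. Distal regions without WT ETS1 had an ETS1 peak in 24.5% and 3.71%. The difference between the regions and those without WT ETS1 was 60.0 percentage points on average. It was positive in both libraries, at 62.5 and 57.4 (exact sign-flip test over libraries, two-sided p = 0.5, the smallest that 2 libraries allow). At gene ends bound by ETS1 in WT the shares were higher, at 98.9% and 84.2%. No KO against WT comparison of ETS1 was made, because the rule fixes the WT share at all regions. The lower share of KO replicate 2 goes with its shorter list, and the part of list length in it was not tested.

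Regions with an annotated start kept an ETS1 call in KO more often than those without. With a start, 97.1% and 79.2% had a peak in the KO libraries and 505 of 645 (78.3%) in both. Without a start it was 81.1% and 50.9%, with 520 of 1140 (45.6%) in both and 155 (13.6%) in neither. The difference was positive in both libraries, at 15.9 and 28.3 points (exact sign-flip two-sided p = 0.5, the smallest possible). The shares also followed the WT rank. Of 120 regions whose weaker WT peak ranked in the top 10% of its list, 109 (90.8%) had ETS1 in both KO libraries and 0 had none. Of 347 regions ranked in the last 25%, 92 (26.5%) had it in both and 76 (21.9%) in neither. Starts were in 59.2% of the first and 14.99% of the second of these classes, so rank and starts moved together, and their separate parts were not tested.

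**Figure D2:**
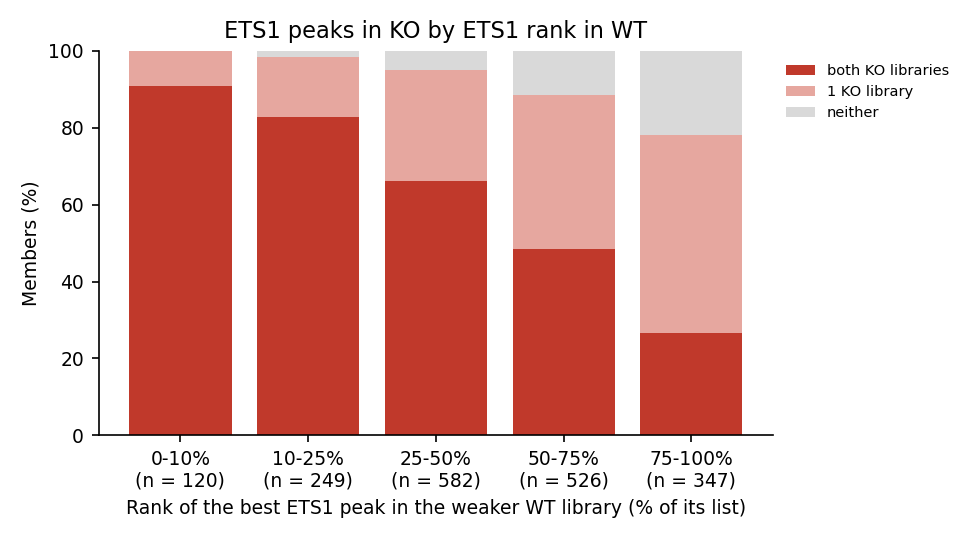
Percentage of regions (y axis) with an ETS1 peak in both, in 1 or in neither KO library, by the rank of the best ETS1 peak in the weaker WT library (x axis, percent of the list, with the number of regions in each class). The share with a peak in both KO libraries is 90.8% in the top class and 26.5% in the last.

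The 169 regions without an ETS1 call in KO were of median width 1302 bp, and CTCF was called in all 4 libraries in 55 of them (32.5%) and in none in 42 (24.9%). Among the 1047 with ETS1 in both KO libraries these shares were 75.3% and 2.01%. The best-ranked of the 169 lay at Prkacb, Tnrc6a, Sema4d, Mtmr6, Rapgef2, Traf2, Map3k1 and Foxp1. Prkacb encodes a catalytic subunit of protein kinase A, and its region (chr3:146781153-146781453) contained an annotated start and CTCF in all 4 libraries. Its H3K27ac covered 290 and 279 bp in WT and 233 and 231 bp in KO. Tnrc6a encodes a scaffold of microRNA silencing, and its region (chr7:123107274-123110521) had ETS1 over 538 and 201 bp in WT and no CTCF call, while H3K27ac covered 2810 and 2497 bp in WT and 2887 and 3216 bp in KO. The region 5663 bp from Sema4d (chr13:51797399-51801282), which encodes a semaphorin of lymphocytes, was alike in having no CTCF call. At Tnrc6a, Mtmr6, Traf2 and Map3k1 the H3K27ac length of both KO libraries exceeded that of both WT libraries, and at Sema4d the genotypes overlapped. Map3k1, a kinase of MAPK signalling, had H3K27ac over 779 and 776 bp in WT and 1461 and 1201 bp in KO at a region 49983 bp away. Near Traf2, which encodes an adaptor of TNF receptors, the lengths were 3115 and 3247 bp against 4879 and 4996 bp, both KO above both WT.

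CTCF was called in most of the regions and in a smaller share of unbound ones. Peaks were present in 73.8% and 76.8% of the regions in WT and in 90.7% and 87.4% in KO. Over all 16043 regions the shares were 56.6% and 57.4% in WT and 72.6% and 70.0% in KO. Distal regions with an ETS1 peak in 1 WT library stood between, at 42.4% and 42.7% in WT and 63.2% and 58.4% in KO. In distal regions without WT ETS1 the shares were 17.6% and 17.3% in WT and 30.5% and 27.5% in KO. The difference between the regions and those without WT ETS1 was 58.9 points on average, from 56.2 to 60.2 in the 4 libraries. Its SD was 1.87 (exact sign-flip two-sided p = 0.125, the smallest that 4 libraries allow). With the 2 WT technical repeats averaged into 1 sample the exact p was 0.25, the smallest that 3 samples allow. The difference was also present within classes of width. Among regions under 1 kb the shares in the same libraries were 75.9%, 79.2%, 90.4% and 89.1% with WT ETS1 and 22.9%, 23.5%, 37.9% and 34.6% without. Among regions without an annotated start the difference was 55.2 points (51.5 to 57.8). All 4 CTCF libraries had a peak in 1206 regions (66.1%, against 49.4% of all 16043). None had one in 110 (6.03%, against 23.7% of all). For distal regions without WT ETS1 these were 461 (11.6%) and 2520 (63.6%). The CTCF peaks were of middling rank, with a median between 47.8% and 55.7% of their lists.

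**Figure D3:**
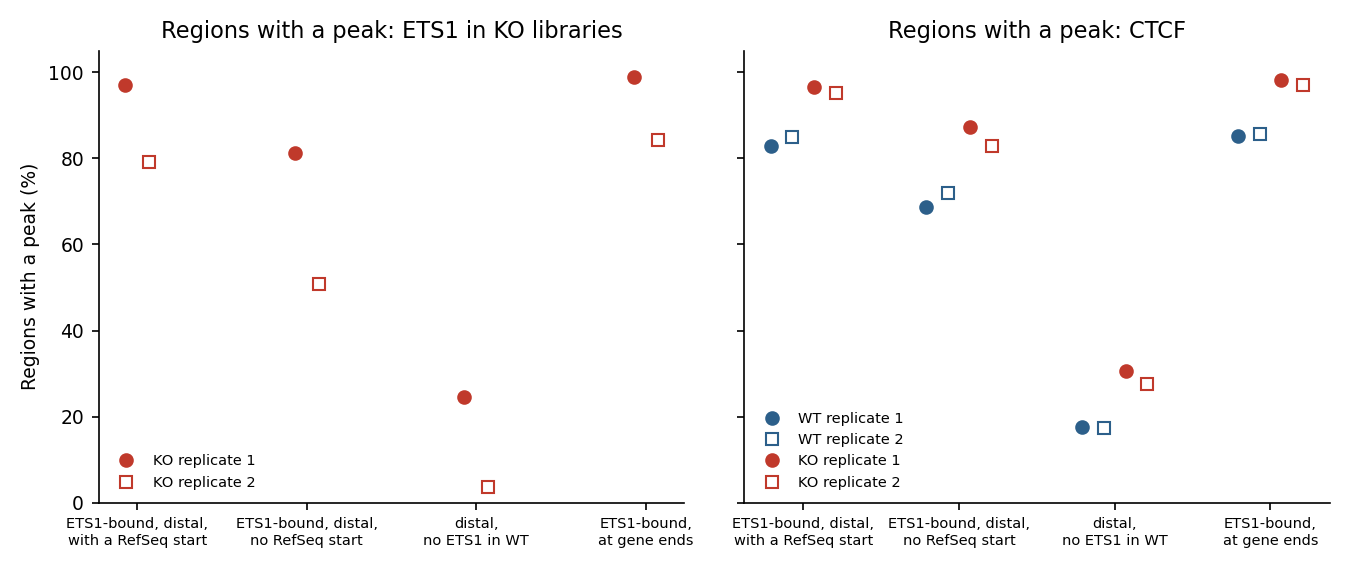
Percentage of regions (y axis) with an ETS1 peak in each KO library (left) and with a CTCF peak in each of 4 libraries (right), for the ETS1-bound distal regions with and without a RefSeq start, distal regions without ETS1 in WT and ETS1-bound regions at gene ends; each point is 1 library. Both kinds of ETS1-bound distal region lie above the unbound ones in every library.

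Regions with a start had CTCF more often than those without, at 82.8%, 85.0%, 96.6% and 95.2% against 68.6%, 72.0%, 87.4% and 83.0% in the 2 WT and 2 KO libraries. That difference was 12.1 points on average and positive in all 4 (exact sign-flip two-sided p = 0.125, or 0.25 with the WT repeats averaged, the smallest possible in each case). At gene ends bound by ETS1 CTCF was called in 91.5% on average over the 4 libraries, against 82.2% of the regions. Between genotypes, CTCF was called in 75.3 ± 2.09% of the regions in WT and 89.1 ± 2.33% in KO (SD, 2 libraries each), a difference of 13.8 points (exact permutation test, two-sided p = 0.333, the smallest that 2 against 2 allow). This test counts the technical repeats of 1 WT culture as replicates, and with those averaged the exact permutation p was 0.667, the smallest that 1 against 2 allow. Distal regions without WT ETS1 stood 11.5 points higher in KO over the same libraries, and the difference of those differences was 2.27 points (exact permutation two-sided p = 0.333, or 0.667 with the WT repeats averaged). The KO lists of CTCF were longer. When the lists of each antibody, H3K27ac and ETS1 included, were cut to one length, keeping the best-scored peaks, 1039 regions met the rule. Of these, 79.1% and 83.7% had CTCF in WT and 87.1% and 83.5% in KO, a difference of 3.90 points in which the genotypes overlapped. The set of regions changed with this cut, so the part of CTCF list length alone was not tested. CTCF was called in both KO and neither WT library in 131 regions (7.18%, against 7.5% of all) and in both WT and neither KO library in 11 (0.603%, against 0.193%). The share of KO-only CTCF calls was thus near that of all acetylated regions.

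The regions with the best-ranked CTCF in its weakest library lay near Rpp21, Cr2, Ankrd9, Sp6, Tmem14a, Ap5b1, Fam167b and Stard10, and they were mostly short. The regions near Rpp21 (chr17:36231283-36231602) and Cr2 (chr1:195241584-195241841) were 320 and 258 bp wide. Their ETS1 peaks had deposited folds of 1.80 and 2.58 and of 2.44 and 2.57 in WT, under the median of the lists. By q they ranked at 34.0% and 0.51% of the WT lists near Rpp21 and at 2.23% and 0.86% near Cr2, so fold and rank went apart. The regions near Ankrd9 and Tmem14a overlapped an IgG peak of the KO library as well.

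H3K27ac lengths were part of the rule, and are described here without a test. The 4 libraries covered 3.51 ± 0.0462 Mb of the regions in WT and 4.10 ± 0.0255 Mb in KO (SD, 2 libraries each), a ratio of 1.17 against 1.23 over all regions called in all 4 libraries. For distal regions without WT ETS1 the ratio was 1.38. It was 1.18 at gene ends bound by ETS1 and 1.19 in distal regions with an ETS1 peak in 1 WT library, both near that of the regions. Per region, the log2 of KO over WT covered length had a median of 0.17 (10th to 90th percentile -0.27 to 0.77). Beside it stood 0.21 over all and 0.37 in the unbound distal regions. At gene ends bound by ETS1 the median was 0.17, and in distal regions with ETS1 in 1 WT library 0.19. Both KO libraries covered more than both WT libraries in 881 regions (48.3%, against 48.5% of all), both WT libraries more in 193 (10.6%, against 7.89% of all), and the genotypes overlapped in 750. These shares stood near those of all regions. Without a start, 43.5% were longer in KO and 13.1% longer in WT, and with a start 57.4% and 6.36%.

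**Figure D4:**
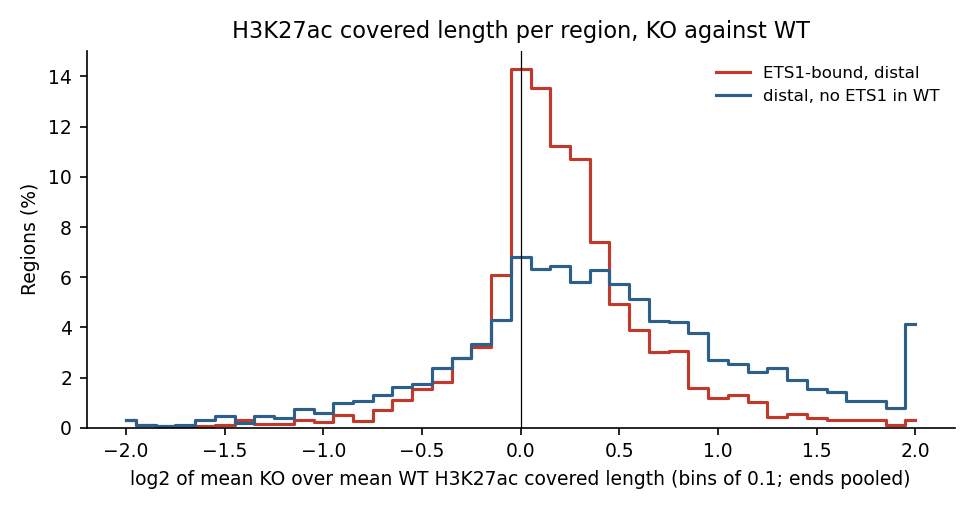
Percentage of regions (y axis) by the log2 ratio of mean KO to mean WT H3K27ac covered length (x axis, bins of 0.1, with values beyond the ends pooled), for the 1824 ETS1-bound distal regions and 3963 distal regions without ETS1 in WT. The ETS1-bound regions are gathered nearer to 0, with medians of 0.17 and 0.37.

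The widest of the regions lay at Cd5, Dad1, Ago2, Hdac7, Zc3h12d, Furin, Slc2a1 and Ikzf1. The widest, of 81951 bp (chr19:10714660-10796610), had its midpoint 16609 bp from Cd5, and its span reached into that gene. Cd5 encodes an inhibitory receptor of T cells. H3K27ac covered 61225 and 61159 bp of this region in WT and 81050 and 78956 bp in KO. The region held 4 shared ETS1 stretches. The next, 43486 bp at the T cell receptor alpha locus beside Dad1 (chr14:54179016-54222501), contained the Trac segment and had 33338 and 34292 bp in WT and 43433 and 41809 bp in KO, with 2 shared ETS1 stretches and CTCF in 2 libraries. A region of 33847 bp inside Ago2, which encodes the slicing Argonaute protein of RNA silencing, held 6 shared ETS1 stretches, and its acetylated length overlapped between genotypes, at 32639 and 29389 bp in WT and 31884 and 33812 bp in KO. Hdac7, a histone deacetylase gene of T cells, Zc3h12d, the proprotein convertase gene Furin, Slc2a1, which encodes the glucose transporter GLUT1, and Ikzf1, which encodes Ikaros, had regions of 27177, 27072, 24440, 23667 and 22752 bp. At Slc2a1 the lengths were 23188 and 22510 bp in WT and 22477 and 22275 bp in KO, so that this region was slightly longer in both WT libraries. At Ikzf1 they were 19597 and 15720 bp against 22752 and 21935 bp.

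The regions that were longest in KO relative to WT, in bp, also included those at Rhoh, Nup62, Il12rb2, Dusp4 and Cd6. Rhoh, which encodes a GTPase of blood cells, had 5716 and 4447 bp in WT and 17637 and 16917 bp in KO (chr5:65855517-65873411), without a CTCF call. The ETS1 peaks of the WT libraries did not meet in the Rhoh region. Il12rb2 encodes the signalling chain of the IL-12 receptor, and its region (chr6:67365073-67376382) contained a start and had 1676 and 3268 bp against 10711 and 7324 bp. ETS1 was called there in KO replicate 1 and not in replicate 2. Dusp4, a phosphatase gene of MAPK signalling, had 6283 and 6290 bp against 12818 and 12310 bp. The region inside Cd6 (chr19:10812747-10831683), a gene related to Cd5 that follows the widest region on chromosome 19, had 14442 and 12506 bp against 18920 and 18913 bp. All 5 regions carried ETS1 in at least 1 KO library, as did most of the 1824 regions, of which 9.27% had it in neither. Over all 16043 regions 28.1% had it in neither.

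The regions longest in WT relative to KO were led by one inside Ets1, described next, and lay otherwise inside Snx18, Tbc1d2b, Mapkapk2, St8sia1, Smurf1, Arhgef10 and Ankrd44. Snx18, a sorting nexin gene, had 5543 and 5757 bp in WT and 2789 and 4026 bp in KO (chr13:113599493-113605384), and no ETS1 peak in KO. Smurf1, which encodes a ubiquitin ligase, had 2254 and 2413 bp against 642 and 518 bp (chr5:144935271-144937683), again without ETS1 in KO. St8sia1, a sialyltransferase gene, had 2594 and 2858 bp against 724 and 771 bp while its ETS1 peaks were called in both KO libraries and CTCF in all 4. Mapkapk2, which encodes the kinase MK2, had 3636 and 2968 bp against 1178 and 1459 bp and an ETS1 peak in KO replicate 1 only. At Smurf1 and Mapkapk2 the ETS1 peaks of the WT libraries did not meet, as in 69 of the 1824 regions. The ETS1 peak of WT replicate 1 at Mapkapk2 covered 18 bp and stood at 99.9% of its list.

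The locus named in the KO strain held 4 of the regions whose nearest gene was Ets1, and its neighbour Fli1, which encodes another ETS factor, held 1. They are taken in chromosome order. Inside Fli1 (chr9:32539184-32541400) H3K27ac covered 2135 and 2208 bp in WT and 2038 and 1283 bp in KO, less in both KO libraries. The region 41056 bp before Ets1 (chr9:32594377-32595994), which contains the start of the non-coding gene Gm31871, had 1472 and 1618 bp in WT and 740 bp in each KO library. CTCF was called in all 4 libraries there and ETS1 in KO replicate 1 only.

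Of the 3 regions inside Ets1, the first (chr9:32695512-32697926) overlapped between genotypes, at 2351 and 2162 bp in WT and 2229 and 2415 bp in KO. Its ETS1 peaks covered 2203 and 2153 bp in WT and 1252 and 1321 bp in KO, with CTCF in all 4 libraries. The second (chr9:32699358-32708841) was slightly longer in KO, at 7865 and 7456 bp in WT and 8324 and 8183 bp in KO, and kept ETS1 in both KO libraries. The third (chr9:32740468-32746618) had 6149 and 5221 bp in WT and 2047 and 2032 bp in KO, the greatest WT excess in bp of any of the 193 regions longer in WT. Its ETS1 peaks covered 631 and 1425 bp in WT and 174 bp in KO replicate 1, with none in KO replicate 2. By rank in the weaker WT list it stood at 99.5%, among the last calls. Within the one locus the regions thus went in different directions. Since the coordinates of the knockout are not in the labels, engineered and other differences in these 5 regions cannot be told apart.

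**Figure D5:**
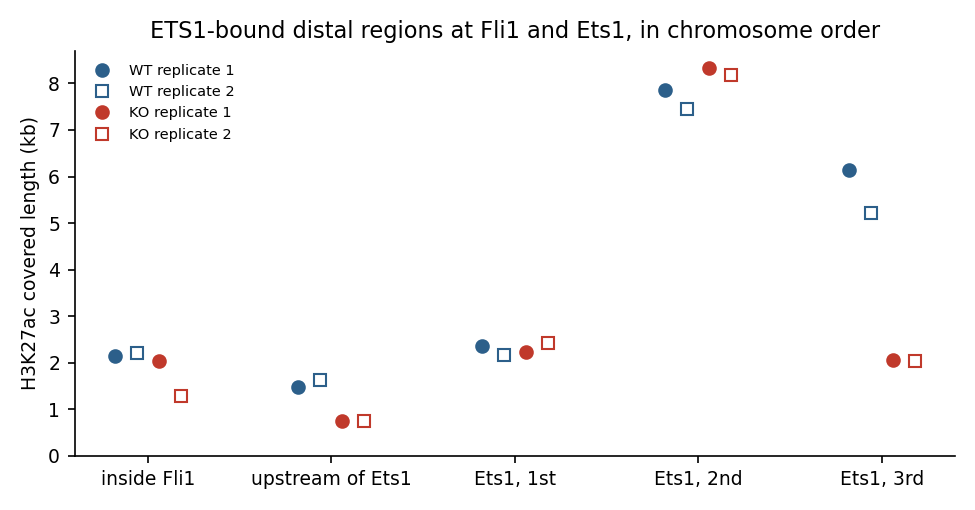
H3K27ac covered length in kb (y axis) of the 5 ETS1-bound distal regions nearest to Fli1 and Ets1, in chromosome order (x axis), with 1 point for each of the 2 WT and 2 KO libraries. The KO points lie below the WT points at Fli1, upstream of Ets1 and at the third region inside Ets1, above them at the second, and among them at the first.

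The regions were spread over many genes. They had 1511 protein-coding genes as their nearest or surrounding gene, which is 6.9% of 21887, and 1284 of these had 1 region and 61 had 3 or more. Of the regions, 291 (16.0%) lay in 129 groups with gaps of at most 12.5 kb, and no group held more than 4. The genes with most regions were Zmiz1 (8), Itpk1 (7), Dnmt3a (5), Nfatc2 (5) and Septin9 (5), followed with 4 each by Bcl2l1, Bcor, Eea1, Ets1 and Plec among the first 10 by symbol. A gene with a long body can hold more regions, and gene length was not adjusted for.

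Zmiz1 encodes a transcriptional coactivator related to the PIAS proteins, and H3K27ac over its 8 regions came to 21.5 and 20.4 kb in the WT libraries and to 21.3 and 22.5 kb in the KO libraries, which overlapped. Of these regions 3 were longer in both KO libraries and 2 in both WT libraries, and 5 had ETS1 in both KO libraries. Itpk1, an inositol phosphate kinase gene, was also divided, with 3 of 7 regions longer in KO and 2 in WT, and summed lengths of 13.2 and 13.7 kb (WT) beside 14.9 and 13.2 kb (KO). Dnmt3a encodes a DNA methyltransferase for unmethylated sites, and 4 of its 5 regions had ETS1 in both KO libraries and 3 contained a start. Bcl2l1, whose product BCL-XL protects from apoptosis, had 4 regions in one group of 46928 bp, with summed lengths of 22.4 and 22.7 kb (WT) beside 27.8 and 26.6 kb (KO). The best-ranked of these (chr2:152830515-152831759) contained 2 protein-coding starts and stood at 1.21% of the weaker WT ETS1 list. Eea1, an endosome gene, had 4 regions outside its body, and 3 of them had no ETS1 peak in KO. Bcor, the gene of a BCL6 corepressor, had 3 of 4 regions longer in KO and none longer in WT, as did the cytolinker gene Plec.

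Regions at genes of T cells were read from 7 gene lists, beside the 22.9% of all distal regions that were chosen. Among 27 genes of T cell identity and receptor signalling 14 had a region, with 23 of 146 distal regions (15.8%). Of 26 activation genes 15 had one (26 of 129, 20.2%), of 26 Th1 genes 8 (11 of 66, 16.7%), of 26 genes of other helper fates 5 (6 of 35, 17.1%), of 12 naive and memory genes 5 (7 of 67, 10.4%), and of 15 ETS family genes 6 (11 of 51, 21.6%). Of 19 markers of other cells, Cebpb alone had one. Each list's percentage of distal regions was below that of all distal regions. By genes it was otherwise, since 6.9% of all 21887 protein-coding genes had a region. Markers of other cells, at 5.26%, were below this share, and the other lists, at 19.2% to 57.7%, were above it. None of these shares was tested. The Th1 genes with a region included Tbx21, Il12rb2, Irf1, Irf8, Runx3, Eomes and Bhlhe40, while Ifng, Stat4, Cxcr3 and Il18r1 were among those without. In the list of T cell identity, 13 of 23 regions were longer in KO and 1 in WT, and in the activation list 15 of 26 and 1. Of the regions of other helper genes 5 of 6 were longer in KO and 0 in WT, of Th1 genes 4 of 11 and 1, and of naive and memory genes 1 of 7 and 0. The ETS family list had 4 longer in KO and 5 in WT, of which Ets1 held 2. Beside these stand the 48.3% and 10.6% of all 1824 regions.

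The list genes with most regions were Nfatc2 with 5 and, with 3 each, Bcl11b, Cd247, Lef1, Myc, Nfatc1 and Nr4a1, besides Ets1. Nfatc2 encodes a calcium-regulated factor downstream of the T cell receptor. Its region at the start window printed above (chr2:168587433-168590683) had H3K27ac over 1886 and 1820 bp in WT and 2323 and 2760 bp in KO, with ETS1 over 1139 and 1496 bp in WT and 1030 and 844 bp in KO. The shorter region inside the gene at chr2:168582980-168584937 went the other way, with 1632 and 1625 bp in WT and 1194 and 1587 bp in KO, and had ETS1 in KO replicate 1 only. Cd247 encodes the zeta chain of the T cell receptor complex, and all 3 of its regions were longer in both KO libraries. The one at its start window (chr1:165787524-165791850) had 3882 and 3651 bp in WT and 4274 and 4316 bp in KO. ETS1 covered 1400 and 1740 bp of it in WT and 1455 and 1479 bp in KO.

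Bcl11b, a factor of T lineage commitment, had its widest region (15013 bp) at chr12:107989284-108004296, which contains a start, with 12255 and 10685 bp in WT and 14782 and 13814 bp in KO. ETS1 covered 721 and 2508 bp of it in WT and 1621 and 2497 bp in KO, and CTCF was called in all 4 libraries. Its region at chr12:107971214-107974844 had ETS1 in both KO libraries without CTCF in any. Lef1, a partner of beta-catenin kept in naive T cells, had 3 regions in which the genotypes overlapped. At Myc, the growth regulator gene, the 3 regions lay outside the gene, and 0 of them had ETS1 in both KO libraries. The one at chr15:62264633-62265751 had neither ETS1 in KO nor CTCF in any library, with H3K27ac over 315 and 1089 bp in WT and 482 and 495 bp in KO. Nr4a1 encodes an orphan nuclear receptor induced by T cell receptor signals, and its 3 regions all had CTCF in 4 libraries, with ETS1 in both KO libraries at 1 of them. Nfatc1, which encodes another calcium-regulated factor, had 3 regions inside the gene in which the genotypes overlapped.

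Tbx21, which encodes the Th1 master factor T-bet, had 1 region (chr11:97122087-97129311), with 5968 and 5986 bp of H3K27ac in WT and 6962 and 6083 bp in KO. It had CTCF in all 4 libraries and ETS1 in 1 KO library. Junb, an AP-1 gene, had a region of 16202 bp with 11492 and 13181 bp in WT and 15842 and 16165 bp in KO, and kept ETS1 in both KO libraries.

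Non-coding genes lay within 2 kb of 515 regions (28.2%). The widest of these, beside those at Cd5, Dad1, Hdac7, Zc3h12d, Furin and Slc2a1, were inside or near Laptm5, with 19574 bp, and Septin9, with 18958 bp. At Laptm5, a lysosomal protein gene of lymphocytes, H3K27ac covered 18035 and 18206 bp in WT and 18274 and 19548 bp in KO. At Septin9 it covered 17271 and 18250 bp in WT and 17087 and 18200 bp in KO, with 5 shared ETS1 stretches, so the genotypes overlapped while ETS1 and CTCF were called in every library.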

How the data were processed

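CUT&RUN peak lists of 14 libraries from Th1 cells were used, each called on its own library. The submitters' processing notes name BWA and GRCm38. The peak names in the deposited files are those of MACS2 broad peaks, and the caller's options, version and control are not stated. A deposited list holds 9 unnamed columns. By their values, the deposited score is a whole number near 10 times the last column, the deposited fold value is a ratio of enrichment, and the last columns are the authors' −log10 p and −log10 q. These values were used to rank peaks within a list only, by q and then p. Depth is unknown, and no interval that needs it is given.

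Peaks on the 19 autosomes and the sex chromosomes entered. Peaks were merged and intersected at 1 bp in Python 3.11.15 with pandas 2.3.3, numpy 2.4.6 and scipy 1.17.1, and the code was tested on simulated lists. Covered length is the part of a region under the peaks of a library. A region was counted as longer in a genotype when both of its libraries exceeded both of the other. Regions were named by the protein-coding gene that holds the midpoint, or else the nearest, from a RefSeq table of GRCm38.p6. Distances between a region and a gene are taken from the midpoint of the region. Starts and windows came from a RefSeq table without entries for 1 chromosome, which leaves 1785 regions. On the other chromosomes the table lacks the starts of some genes, such as Ets1. All genes of the lists were matched by symbol. Motifs were searched on both strands. The 10 exact tests of shares took libraries as units, and most of those of CTCF were repeated with the WT technical repeats averaged. The comparison with gene ends and that of genotypes in distal regions without WT ETS1 were not repeated. Each gave the smallest p its number of units allows, so none could pass 0.05, with or without adjustment.

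Genes and regions named follow a rule that takes all regions at Ets1 and Fli1, the 10 genes with most regions, list genes with at least 3 regions (up to 4 a list), and 8 regions each by ETS1 rank, width, difference in H3K27ac length in each direction, absence of ETS1 in KO, CTCF rank and nearness to a non-coding gene. The regions at Tbx21, Il12rb2 and Junb as list genes, the printed start windows and the counts of list genes without a region were added after their values were seen. Members and gene lists were chosen with earlier results of these data known. A few list and marker genes are not reported here by name but were counted.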

Additional observations from a re-analysis of the deposited data

How the results depend on the processing

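The count of regions changed with the calling. The q threshold and the equal lengths were applied to every list, H3K27ac and ETS1 together, and their separate parts were not tested. With −log10 q of at least 5 in every list 53 regions were left, with lists of one antibody cut to equal length 1039, at over 10 kb from gene ends 949, without an annotated start 1140, and with ETS1 in at least 1 WT library 3987. Leaving out an H3K27ac or ETS1 WT library in turn gave 1847 to 3694, the last without ETS1 WT replicate 1. The share with ETS1 in both KO libraries became 64.2%, 49.5% and 45.6% with the q threshold, beyond 10 kb and without a start, and ran from 35.0% (without ETS1 WT replicate 1) to 87.0% (without ETS1 KO replicate 2) when a library was left out. The median log2 ratio of H3K27ac length was 0.25 with the q threshold, 0.15 beyond 10 kb and 0.15 without a start, and 0.14 to 0.17 with a library left out. Regions whose lengths did not overlap numbered 1074, and 30, 622, 562 and 645 with the q threshold, equal list lengths, beyond 10 kb and without a start. With an H3K27ac or ETS1 WT library left out they ran from 1237 to 2102, the last without ETS1 WT replicate 1. The start and IgG alternatives and the averaging of WT repeats were chosen after seeing the data. Of 97 recomputed values 73 stayed within the limits set, 24 moved and 0 reversed. The CTCF comparisons and the ETS1 difference between classes kept their sign under all of them, and their exact tests could not pass 0.05 at any setting. Without a library, each genotype compared with 1 library rests on that library. No paired analysis was possible because the numbers mark technical replicates in WT and biological replicates in KO.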
